A study of Mus musculus with 25 samples.

Results

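Meg3, Rian and Mirg are long noncoding RNAs of the Dlk1-Dio3 imprinted region of distal mouse chromosome 12. They are made from the maternal chromosome, in the same direction. The region also holds many C/D box small nucleolar RNAs and a large microRNA cluster, most of which lies in the stretches between the 3 RNAs. Meg3 is largely nuclear, Rian is the host transcript of the small nucleolar RNAs, and Mirg is the host transcript of microRNAs. The crosslinks of the splicing regulator SRSF7, an SR protein with an RNA recognition motif and a zinc knuckle, were described here over these 3 RNAs in all 25 libraries of the series. Members were the plus-strand crosslink events in 3 fixed intervals of mouse build mm9: Meg3 at chr12:110779001-110812000 (33 kb), Rian at chr12:110840001-110902000 (62 kb) and Mirg at chr12:110970001-110990000 (20 kb). The stretch between Meg3 and Rian (28 kb) and the stretch between Rian and Mirg (68 kb) were taken as well, and all 5 segments together are called the domain (chr12:110779001-110990000, 211 kb). The 3 RNAs covered 115 bins of 1 kb and the stretches between them 96, of 1259336 bins with an event on either strand in the whole series. No mm9 gene annotation was used here, so the gene names come with the intervals, exons and introns were not told apart, and no marker gene of the cells was checked.

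The cells were P19, a mouse embryonal carcinoma line that can differentiate into neural and muscle cells, and every UV library came from cells irradiated at 254 nm. In iCLIP the protein is immunoprecipitated with its crosslinked RNA and each cDNA that ends at the crosslink is counted as 1 event. Anti-GFP libraries came from cells overexpressing GFP-tagged SRSF7 (WT 2, WT 3 and WT 4), or carrying the tagged variants SRSF7mutZn (mutZn 3 and mutZn 4) or SRSF7D27aa (D27aa 1 and D27aa 2), with 1 library without UV for each protein. Anti-SRSF7 libraries from the SRSF7-GFP overexpressing cells were named for the product taken: GFP_OE 3 and 4, endo_OE 4 and 5, RRM_OE 3 and 4. A further anti-SRSF7 library, endo_WT, came from cells with WT genotype, and 1 library without UV and 1 without antibody served as controls. In piCLIP, SRSF7-GFP was taken with anti-GFP from monosomal fractions (mono_IP 1 and 2) and polysomal fractions (poly_IP 1 and 2), each with 1 library titled IgG. The labels do not say how the transgenes are driven or whether the endogenous gene was altered in the variant lines, and they list anti-EGFP as the antibody of the IgG-titled libraries.

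Depth ranged from 221521 to 11774078 events in the 7 UV anti-GFP libraries, from 17745 to 471340 in the 7 UV anti-SRSF7 libraries, from 18319 to 52393 in the piCLIP immunoprecipitates and from 1153 to 88997 in the 7 controls. Levels are given as CPM, the events of an interval per 1e+06 events of the library on placed chromosomes. WT 2 is the shallowest UV anti-GFP library and stood apart in these RNAs, with 67 domain events, so levels and ratios of the segments and of the named bins are given with and without it where they rest on WT. By the file headers, WT 3 and WT 4 come from the same run and carry the same replicate number. The design text calls the replicates biological. The steady-state amount of each RNA was not measured, so more crosslinking per RNA and more RNA cannot be told apart in any of the values below.

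The domain is shown first by the sequences its transcripts carry. By gene order in the RefSeq annotation of another build (GRCm38.p6), 54 plus-strand microRNA hairpins lie from Meg3 to Mirg: 1 within Meg3, 13 between Meg3 and Rian, 3 within Rian, 27 between Rian and Mirg and 10 within Mirg. Both stretches between the named RNAs therefore hold more hairpins than the RNAs themselves. A mature microRNA of each of the 5 places is printed from RefSeq, with the seed (bases 2 to 8) in capitals, and a second one is given between Rian and Mirg because it has the same seed, AUGUAAC.
miR-770-5p, within Meg3: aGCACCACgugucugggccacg
miR-127-3p, between Meg3 and Rian: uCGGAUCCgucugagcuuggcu
miR-370-3p, within Rian: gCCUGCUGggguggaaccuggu
miR-379-3p, between Rian and Mirg: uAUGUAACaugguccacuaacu
miR-411-3p, between Rian and Mirg: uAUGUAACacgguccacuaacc
miR-410-3p, within Mirg: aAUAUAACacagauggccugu
The Meg3 promoter is printed because the events described below begin at the Meg3 end and run on through the whole domain. The RefSeq window on the plus strand of GRCm38.p6, from 250 bases before to 50 bases after the gene start, carries TGACGTCA (a cyclic AMP response element, its own reverse complement) and TATAAA (a core promoter box, found on both strands as overlapping matches), both in capitals.
Meg3 promoter: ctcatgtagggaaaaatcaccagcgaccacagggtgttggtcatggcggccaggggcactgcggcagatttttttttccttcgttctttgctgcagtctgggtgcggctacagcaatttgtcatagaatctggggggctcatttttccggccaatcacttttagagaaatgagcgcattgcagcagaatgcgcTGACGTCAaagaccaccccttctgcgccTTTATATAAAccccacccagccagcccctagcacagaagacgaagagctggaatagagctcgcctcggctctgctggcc
TATAAA was found on either strand in 13.6% and TGACGTCA in 1.79% of 32851 RefSeq promoters of this length. The windows listed for Rian, for Mirg and for a second Meg3 start hold neither set of letters.

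Crosslink events ran through Meg3, Rian, Mirg and both stretches between them, and almost all of them were on the plus strand. Over all libraries the domain held 103306 plus-strand and 28 minus-strand events, so 99.97% were on the plus strand, and 17 of the 25 libraries had no minus-strand event. In mutZn 3, the deepest library, 198 of the 211 bins held at least 50 events, and these bins reached from the first kb of the domain to chr12:110988000. The same library held 6 plus-strand events in the 10 kb before the domain and 1 in the 10 kb after it. Within 200 kb on either side it held 35 and 26 plus-strand events, against 58929 in the domain.

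**Figure D1:**
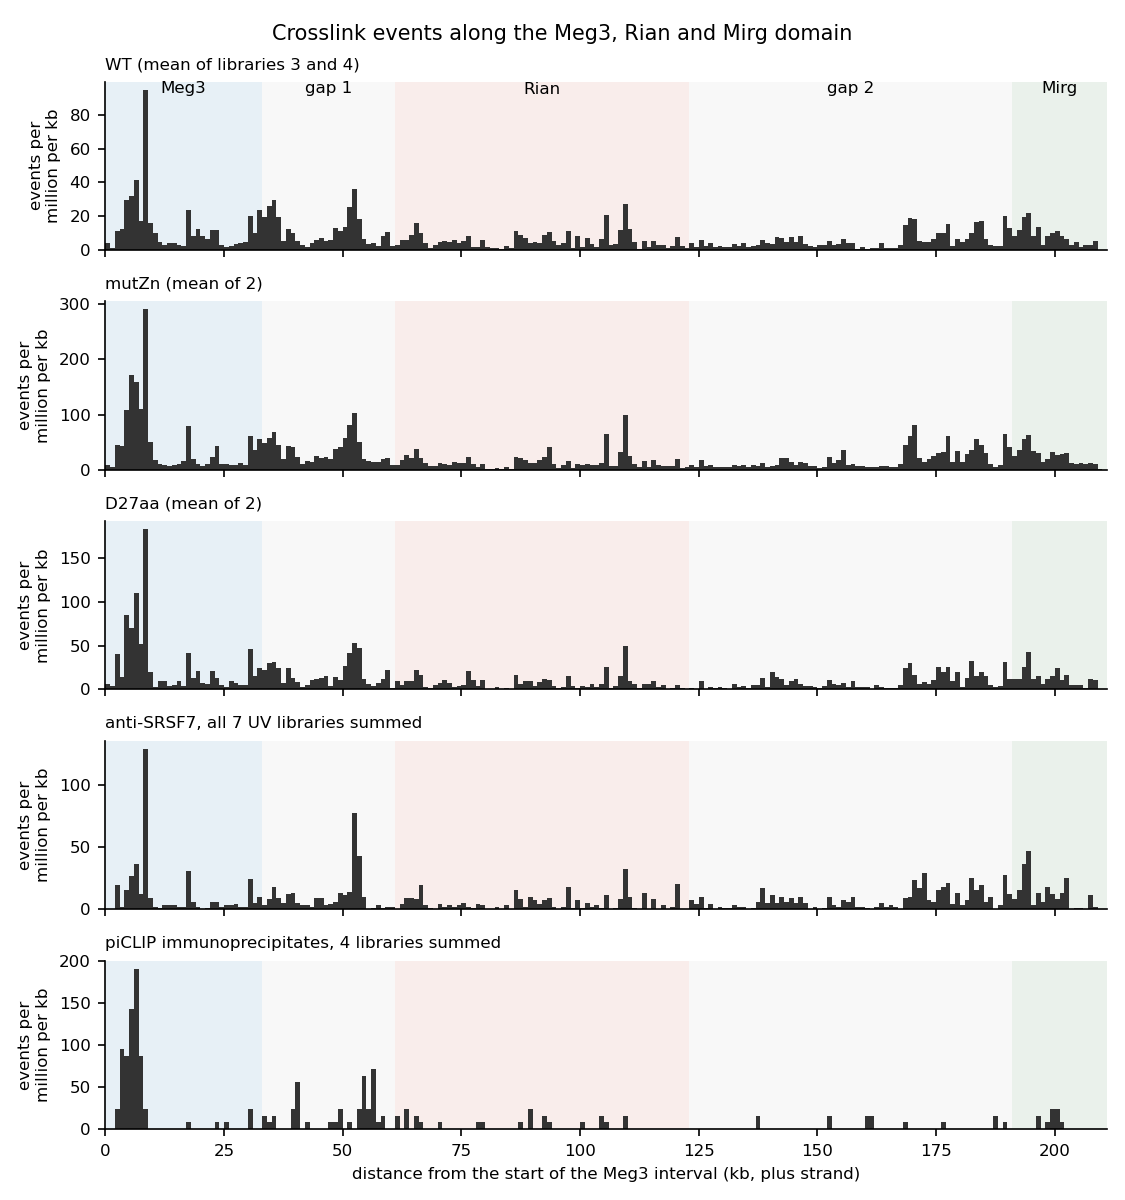
Plus-strand crosslink events per 1 kb bin along the domain, as CPM, against the distance in kb from the start of the Meg3 interval, for the WT, mutZn and D27aa libraries, the anti-SRSF7 libraries and the piCLIP immunoprecipitates. The WT panel is the mean of WT 3 and WT 4, the mutZn and D27aa panels are means of 2 libraries, and the anti-SRSF7 and piCLIP panels are summed events scaled to the summed library totals. Blue, red and green shading marks Meg3, Rian and Mirg and grey the stretches between them, which hold signal as well, and the highest iCLIP bin lies 8.5 kb from the start, in Meg3.

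Meg3 was crosslinked most in every UV anti-GFP group when the length of the interval was taken into account. Mean levels per kb were 9.60 CPM for Meg3 in WT, 44.6 in mutZn and 26.5 in D27aa. Rian was the least crosslinked of the 3 RNAs per kb, at 3.98 CPM in WT, 14.5 in mutZn and 7.21 in D27aa. Mirg lay between them, at 5.79, 22.9 and 12.3 CPM per kb. The stretch between Meg3 and Rian held 8.22, 34.0 and 17.3 CPM per kb, above Mirg in all 3 groups, and the stretch between Rian and Mirg held 3.89, 17.5 and 8.48, near the level of Rian. Without WT 2 the WT levels per kb were 13.5 CPM for Meg3, 5.46 for Rian, 7.45 for Mirg, and 11.2 and 5.34 for the first and second stretch, which kept this order.

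The level of Meg3, a nuclear noncoding RNA studied as a growth suppressor, was lowest with WT SRSF7 and highest with mutZn. Meg3 held 58.7, 441 and 451 CPM in WT 2, 3 and 4, then 1480 and 1461 in mutZn 3 and 4, and 874 and 875 in D27aa 1 and 2. No library of one protein fell within the range of another. Group means were 317 ± 224 CPM for WT (SD, n = 3), 1471 ± 13.9 for mutZn (n = 2) and 875 ± 1.14 for D27aa (n = 2), and WT without WT 2 was at 446 ± 7.48 (n = 2). The mean of mutZn was 4.64 times that of WT and the mean of D27aa 2.76 times (3.30 and 1.96 times without WT 2).

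Rian, the host of the small nucleolar RNAs, had the same order of proteins. It held 63.2, 335 and 342 CPM in WT 2, 3 and 4, then 901.5 and 900.3 in mutZn 3 and 4, and 446 and 448 in D27aa 1 and 2. The groups again did not overlap. Means were 247 ± 159 for WT (SD, n = 3; 338 ± 4.63 without WT 2, n = 2), 901 ± 0.797 for mutZn (n = 2) and 447 ± 1.28 for D27aa (n = 2), which gave a mutZn to WT ratio of 3.65 and a D27aa to WT ratio of 1.81 (2.66 and 1.32 without WT 2).

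Mirg, the microRNA host at the far end, followed the same order. It held 49.7, 144 and 154 CPM in WT 2, 3 and 4, then 471 and 443 in mutZn 3 and 4, and 215 and 275 in D27aa 1 and 2. The groups did not overlap, though the D27aa libraries differed from each other more here than in Meg3 or Rian. Means were 116 ± 57.6 for WT (SD, n = 3; 149 ± 7.32 without WT 2, n = 2), 457 ± 19.5 for mutZn (n = 2) and 245 ± 42.7 for D27aa (n = 2), with ratios to WT of 3.94 and 2.12 (3.07 and 1.65 without WT 2).

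The stretches between the RNAs had the order of the RNAs themselves. Between Meg3 and Rian, WT 2, 3 and 4 held 63.2, 324 and 303 CPM, mutZn 3 and 4 held 955 and 948, and D27aa 1 and 2 held 491 and 479. Between Rian and Mirg the values were 67.7, 361 and 365 CPM in WT, 1197 and 1176 in mutZn, and 521 and 633 in D27aa. Neither stretch had a WT library within the range of the variants. The mutZn to WT ratio was 4.13 in the first stretch and 4.48 in the second, and the D27aa to WT ratio 2.11 and 2.18. Without WT 2 these were 3.03 and 3.27, and 1.55 and 1.59.

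**Figure D2:**
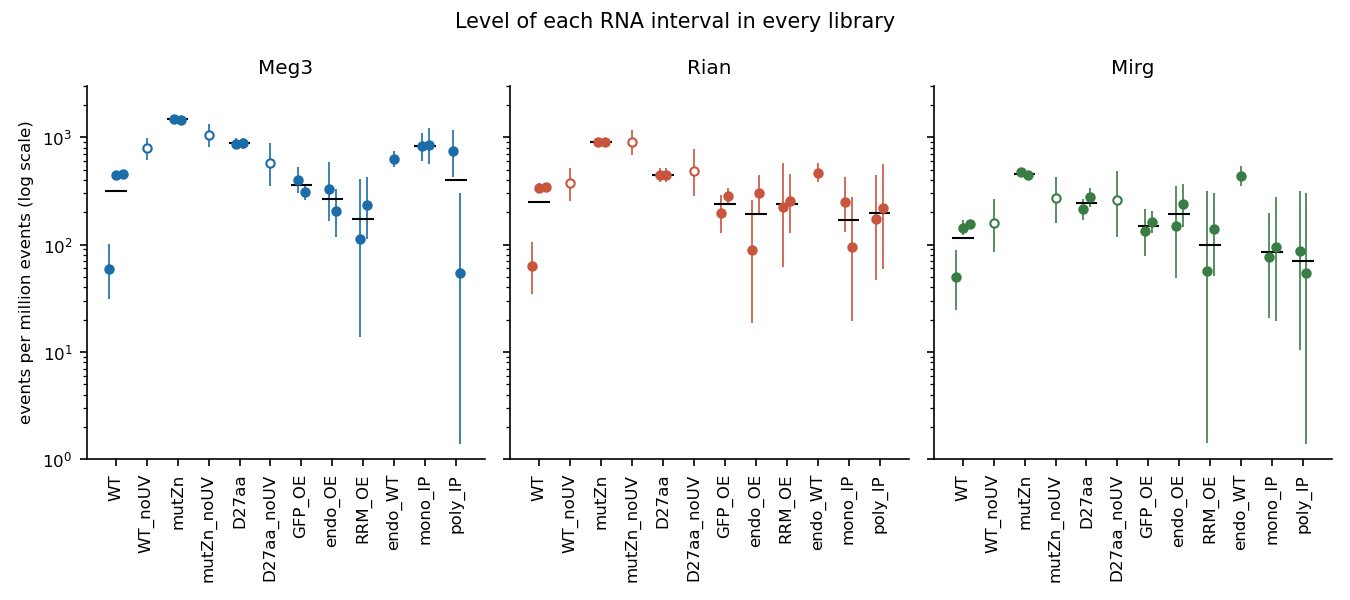
CPM of Meg3, Rian and Mirg in each library (filled points, log axis) by group, with 95% exact counting intervals, black lines for group means and open points for the libraries without UV. The UV anti-GFP libraries lie in the order WT, D27aa, mutZn in each RNA, with Meg3 at 58.7 to 451 CPM in WT, 874 and 875 in D27aa and 1461 and 1480 in mutZn, and WT 2 is the low WT point in each panel.

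The 3 RNAs were chosen by the CPM of the UV anti-GFP libraries, with the contrasts between WT, mutZn and D27aa known, so the differences between WT, mutZn and D27aa are a description and were given no test. Across the genome 36173 windows of 5 kb passed the filter on low values, and 21.7% of them had both mutZn libraries above all WT libraries, while 5.43% had a mean at least 2-fold higher. In the domain 42 of 43 windows did so by each rule. For D27aa against WT the shares of all windows were 12.2% and 6.97%, and 28 and 25 of the 43 domain windows met them. For mutZn against D27aa they were 34.1% and 12.2%, and 39 and 22 of the 43 domain windows met them. The median mutZn to WT ratio was 1.03 over all windows and 3.92 over the domain windows, and the median D27aa to WT ratio 0.945 and 2.07.

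Rian, Mirg and both stretches had the order of Meg3, and Meg3 had the highest mean ratio of either variant to WT when every event was counted. With each position counted once, the mutZn to WT ratio was 2.60 for Meg3, 2.83 for Rian and 3.02 for Mirg, and 3.04 and 3.49 for the stretches, so that Meg3 then had the lowest; the D27aa to WT ratio of Meg3, 2.82, was still the highest. In bins of 1 kb, the mean of mutZn was above WT in all 211 bins, and both mutZn libraries were above all WT libraries in 203. The mean of D27aa was above WT in 180 of the 209 bins that had an event in either group: 32 of 33 in Meg3, 46 of 62 in Rian and 17 of 18 in Mirg. Against D27aa, the mean of mutZn was higher in 29 of 33 bins of Meg3, 56 of 62 of Rian and 19 of 20 of Mirg. Without WT 2, mutZn was above the mean of WT 3 and 4 in 208 of 211 bins and D27aa in 158 of 209, among them 31 of 33 in Meg3, 38 of 62 in Rian and 17 of 18 in Mirg. By the same rule of a higher mean, over all 36173 windows of 5 kb, mutZn was above WT in 53.5%, D27aa above WT in 45% and mutZn above D27aa in 58.1%, against 43, 43 and 42 of the 43 domain windows. With every event counted, the mutZn to D27aa ratio was 1.68 for Meg3, 2.02 for Rian, 1.86 for Mirg and 1.89 for the domain, so the RNA with the highest ratio of either variant to WT had the lowest ratio of one variant to the other.

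The sequencing run and the depth set limits to these ratios. Within run 6, which held WT 3, WT 4, mutZn 4 and D27aa 2, the mutZn to WT ratio was 3.28 for Meg3, 2.66 for Rian and 2.97 for Mirg, and the D27aa to WT ratio 1.96, 1.32 and 1.85. Within run 5, which held WT 2 and D27aa 1, the D27aa to WT ratio was 14.9, 7.06 and 4.33, where WT 2 was low in every segment. Repeated events at a position were more frequent in the deep libraries, with 1.79 and 1.502 events per domain position in mutZn 3 and 4 against 1.09 and 1.08 in D27aa 1 and 2 and 1.15 in WT 4. With each position counted once per library, the mutZn to D27aa ratio of the domain was 1.33 and that of Meg3 0.921, which reverses the order of the variants in Meg3. The part of depth in this reversal was not tested.

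**Figure D3:**
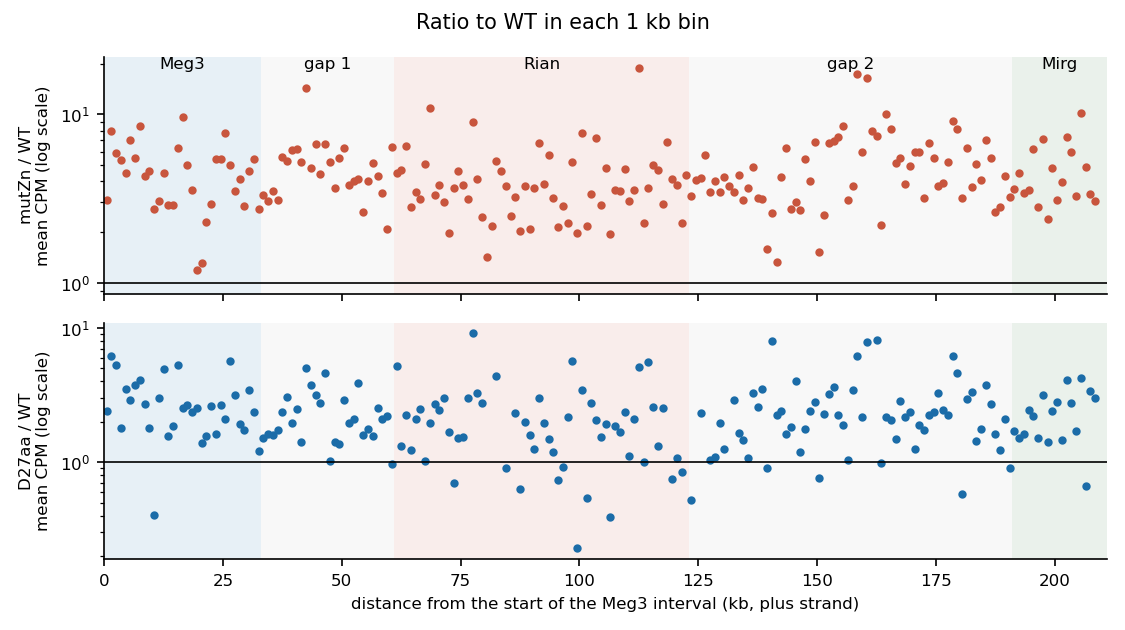
Ratio of mean CPM in 1 kb bins along the domain (log axis), for mutZn to WT and D27aa to WT, against the distance in kb from the start of the Meg3 interval. Points are drawn where both means are above 0: the 209 points of mutZn all lie above 1, and 180 of the 199 points of D27aa do.

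As a share of domain events, Meg3 was lowest in WT, higher in mutZn and highest in D27aa, and Rian had its highest values in WT. Meg3 held 19.4%, 27.5% and 27.9% of domain events in WT 2, 3 and 4, then 29.6% in both mutZn libraries, and 34.3% and 32.3% in D27aa 1 and 2. Rian held 20.9%, 20.9% and 21.1% in WT, 18.0% and 18.3% in mutZn, and 17.5% and 16.5% in D27aa. All 3 WT libraries were above all 4 variant libraries in the Rian share and below them in the Meg3 share. Mirg held 16.4%, 8.96% and 9.55% in WT, 9.41% and 8.99% in mutZn, and 8.45% and 10.2% in D27aa, so that its share did not separate the proteins. WT 2 gave the highest Mirg share from 11 of its 67 events. With each position counted once, Meg3 held 19.7%, 26.6% and 25.2% of domain positions in WT 2, 3 and 4 against 21.2% and 22.9% in mutZn 3 and 4 and 33.5% and 30.5% in D27aa, so mutZn then lay below WT 3 and WT 4. Rian held 19.7%, 21.1% and 21.4% in WT and 20.1% and 19.9% in mutZn by that count, so that WT and mutZn overlapped. Counting every event, the CPM of Meg3 within a library was 1.32 times that of Rian in both WT 3 and WT 4, 1.64 and 1.62 times in mutZn and 1.96 and 1.95 times in D27aa, and 0.929 times in WT 2. These shares come from the same libraries as the choice of the RNAs and were not tested.

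The profile along the domain was alike in all UV anti-GFP libraries with enough events to draw one. Over the 211 bins the Pearson correlation was 0.996 between mutZn 3 and 4, 0.951 between WT 3 and 4 and 0.914 between D27aa 1 and 2. Between proteins it was 0.924 to 0.949 for WT and mutZn, 0.875 to 0.919 for WT and D27aa, and 0.907 to 0.933 for mutZn and D27aa. Against the library without UV of the same protein it was 0.738 to 0.764 for WT, 0.733 to 0.747 for mutZn and 0.488 to 0.529 for D27aa. Those libraries held 228, 257 and 108 domain events. The points are neighbouring bins that have the same base composition in every library and are not independent. The 33 highest bins held 50% of the mutZn events, and the 37 highest bins held 50% in WT 4.

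The highest bin of the whole domain lay in Meg3 at chr12:110787001-110788000, 8.5 kb from the start of the interval. It held 13.5, 96.5 and 93.4 CPM in WT 2, 3 and 4, then 290 and 292 in mutZn 3 and 4, and 170 and 196 in D27aa 1 and 2 (mutZn to WT ratio 4.29, or 3.06 without WT 2). It ranked first of the 211 bins in 6 of these libraries and was tied with 5 other bins in WT 2, at 3 events each. Without UV it ranked first in the mutZn library and was tied with 1 other bin in the WT and in the D27aa library. The next bins of Meg3 by mean CPM were chr12:110785001-110786000, at 29.1 in WT, 159 in mutZn and 110.0 in D27aa, and chr12:110784001-110785000, at 24.3, 173 and 70.5. Without WT 2 the WT means of these 2 bins were 41.3 and 32.0. The latter had a mutZn to WT ratio of 7.08 (5.39 without WT 2), the highest of the 9 bins named by rule (the 3 bins of each RNA with the highest mean CPM).

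Rian and Mirg each had their own highest bins, at lower levels. The leading bin of Rian, chr12:110888001-110889000, held 21.1 CPM in WT, 99.1 in mutZn and 49.8 in D27aa on average. It was followed by chr12:110884001-110885000 with 13.6, 65.5 and 26.1 CPM and chr12:110844001-110845000 with 10.6, 36.7 and 22.2. The leading bin of Mirg, chr12:110973001-110974000, held 17.7, 63.0 and 43.0 CPM, next to chr12:110972001-110973000 with 16.1, 54.9 and 26.0. The last of the named Mirg bins, chr12:110979001-110980000, held 8.74, 27.2 and 24.8 CPM. Without WT 2 the WT means were 15.9 to 27.1 CPM in the 3 Rian bins and 10.9 to 22.1 in the 3 Mirg bins. All 9 bins had the order WT, D27aa, mutZn in mean CPM, with and without WT 2.

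The first 10 kb of Meg3, at 4.74% of the length of the domain, held 14.9%, 15.7% and 16.6% of domain events in WT 2, 3 and 4. The share was 19.9% and 20.01% in mutZn and 22.7% and 21.8% in D27aa. The anti-SRSF7 libraries GFP_OE 3 and 4 gave 20.5% and 15.03%, and endo_WT gave 14.2%. Within Meg3 itself these 10 kb held 76.9% of the events in WT 2 (10 events), 57.0% in WT 3 and 59.4% in WT 4. The 4 variant libraries, at 66.3% to 67.6%, lay above WT 3 and WT 4 and below WT 2. GFP_OE 3 and 4 gave 70.6% and 69.7% of Meg3 events. Without UV this share was 68.6% in WT, 58.6% in mutZn and 80.0% in D27aa. The share of domain events without UV was 21.1%, 16.0% and 14.8%.

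Peaks deposited by the authors are single positions with a score that passed their permutation threshold. In the UV lists of WT, mutZn and D27aa they fell in all 5 segments, and the piCLIP list had 0 between Rian and Mirg. The mutZn list had 13785 positions in the domain, 0.614% of the list, the D27aa list 286 (0.823%), the WT list 7841 (0.383%) and the piCLIP list 27 (0.132%). By the authors' scores, the highest mutZn peaks were in Meg3 at positions 110787699 (score 108), 110784261 (89) and 110781931 (79). The highest D27aa peaks were also in Meg3, at 110787986 (9), 110787544 (8) and 110781964 (7). The scores of the mutZn, D27aa and piCLIP peaks equalled the summed events of their libraries at every domain position. Those of the WT list did not: they summed to 22280 against 2891 events of WT 2, 3 and 4 at the same positions, and 73.5% of its 7841 positions had no event in these 3 libraries. The header of that list names 4 inputs, so its peaks were not used to describe WT.

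Libraries without UV, 1 for each protein, held these RNAs at CPM levels within the range of the UV libraries. The WT library without UV held 787 CPM of Meg3, 371 of Rian and 157 of Mirg (70, 33 and 14 events), above all 3 WT libraries with UV. The mutZn library without UV held 1050 CPM of Meg3, 900.3 of Rian and 270.1 of Mirg, and the D27aa library without UV 573, 487 and 258. Domain levels were 2562, 3856 and 3093 CPM without UV against 1174 ± 755 (SD, n = 3; 1610 ± 7.36 without WT 2, n = 2), 4967 ± 54.0 (n = 2) and 2629 ± 116 (n = 2) with UV. These are levels within a library: the totals without UV were 88997, 66644 and 34916 events, so in absolute events the domain held 228, 257 and 108 without UV, against 67 to 6380 in WT, 31701 and 58929 in mutZn and 959 and 1053 in D27aa. The D27aa library without UV shared 21 of its 106 domain positions (19.8%) with WT 4, against 14 (13.2%) at an offset of 1 or 2 nt, a ratio of 1.50. Its ratio was 2.00 with WT 3 and 1.78 with D27aa 1, on 6 and 4 shared positions. With mutZn 3, mutZn 4 and D27aa 2 the ratio was 1.01, 1.17 and 1.14. For the WT library without UV it was 0.667 and 0.971 with WT 3 and 4, and 1.01 and 1.08 with mutZn 3 and 4. With D27aa 1 and 2 it was 1.05 and 1.52, on 5 and 8 shared positions. For the mutZn library without UV the ratio was 1.33 and 0.846 with WT 3 and 4, 0.920 and 0.992 with mutZn 3 and 4, and 1.14 and 0.842 with D27aa 1 and 2. None of these was tested. No test of UV was run, since the UV libraries of this set chose the RNAs.

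The anti-SRSF7 libraries, which were not used to choose the RNAs, allowed tests between the products of 1 cell line. GFP_OE 3 and 4 held 403 and 308 CPM of Meg3, endo_OE 4 and 5 held 329 and 204, and RRM_OE 3 and 4 held 113 and 233. For Rian the values were 197 and 282, 89.7 and 299, and 225 and 256 CPM. For Mirg they were 134 and 163, 149 and 239, and 56.4 and 139.7 CPM. RRM_OE lay below GFP_OE without overlap in Meg3, though RRM_OE 3 held 2 Meg3 events and its 95% exact interval, 13.6 to 407 CPM, reaches both GFP_OE libraries, and the groups overlapped in Rian.

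In limma-voom fits over 447 windows and intervals no difference between these products passed an adjusted p of 0.05 in any of the 3 RNAs. For RRM_OE against GFP_OE the log2 fold change was −0.87 for Meg3 (95% interval −2.24 to 0.49), 0.07 for Rian (−1.31 to 1.45) and −0.34 for Mirg (−2.10 to 1.42), with a limma-voom adjusted p of 0.983 for each. For endo_OE against GFP_OE it was −0.93 for Meg3 (−1.90 to 0.04, adjusted p = 0.498), −0.34 for Rian (−1.63 to 0.95) and 0.18 for Mirg (−0.78 to 1.14). For RRM_OE against endo_OE the domain differed by 0.12 (−0.80 to 1.03, adjusted p = 0.962). The same fits called 0% of all 447 rows in each comparison, with 19, 43 and 27 rows at an unadjusted p under 0.05. The intervals leave room for differences of 2-fold and more in either direction for Rian and Mirg in the first of these comparisons. Within sequencing runs, the CPM of GFP_OE was 3.57 times that of RRM_OE in Meg3 in run 2, where RRM_OE 3 had those 2 events, and 1.32 times in run 3.

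In endo_WT, the 1 library of endogenous SRSF7 from cells with WT genotype, the 3 RNAs stood above both endo_OE libraries. It held 625 CPM of Meg3, 468 of Rian and 435 of Mirg. These were 2.35, 2.41 and 2.24 times the endo_OE means, and the domain ratio was 2.51. The ratio to a single library varied more, since Rian stood at 5.22 times endo_OE 4, which held 3 Rian events, and at 1.57 times endo_OE 5. With 1 library there is no replicate check. The domain level of endo_WT, 2863 CPM, was below both mutZn libraries and above every other UV library.

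None of the 3 RNAs was called between the same tagged protein taken with anti-SRSF7 (GFP_OE) and with anti-GFP (WT). The WT libraries were among those that chose the RNAs, so these differences are a description and are given no p-value. The calls below are part of that description and carry no weight as a test of the RNAs. Over 9905 windows and intervals, limma-voom gave a log2 fold change of 0.56 for Meg3 (95% interval −0.92 to 2.05), 0.30 for Rian (−0.96 to 1.56) and 0.48 for Mirg (−0.32 to 1.29). Of the 29 domain windows in the fit 2 were called, both higher with anti-SRSF7 and both between Rian and Mirg, where 11% of all rows were called and 8.6% were called higher. These were chr12:110915001-110920000, with a log2 fold change of 1.54, and chr12:110950001-110955000, with 1.46. Both calls were lost when WT 4, WT 3 or either GFP_OE library was left out, with limma-trend, with no filter on low values and with the replicate number as a block. The first was also lost with each position counted once, where it fell below the filter, and without WT 2. Without WT 2 the domain difference went from 0.93 to −0.09. The number of rows called went from 1088 to 0 without WT 4 and to 163 without GFP_OE 3. GFP_OE was sequenced in runs 2 and 3 and WT in runs 5 and 6, so run and antibody cannot be told apart.

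The profile of the anti-SRSF7 libraries shared the leading Meg3 bin with the anti-GFP libraries, and GFP_OE had a second high bin before Rian. The bin 8.5 kb from the start ranked first in GFP_OE 3 and 4, endo_OE 4, RRM_OE 4 and endo_WT. It held 127 of the 1659 domain events of the 7 UV anti-SRSF7 libraries (7.66%, 95% exact binomial interval 6.42 to 9.04). The bin chr12:110831001-110832000, 52.5 kb from the start and between Meg3 and Rian, ranked second in both GFP_OE libraries. It was tied for second in endo_WT (24 events, as in 1 other bin), in endo_OE 5 (5 events, as in the bin 8.5 kb from the start) and in endo_OE 4 (2 events, as in 3 other bins). It held 7.39% and 4.46% of domain events in GFP_OE 3 and 4, against 2.21% and 2.29% in WT 3 and 4 and 2.08% to 2.09% in mutZn. It held 1.89% (1 event) in RRM_OE 4, below WT 3 and WT 4, and 3.95% in the WT library without UV. This bin was singled out after its values were seen and its difference was not tested. The correlation of the 211-bin profile was 0.736 to 0.811 between WT and GFP_OE and 0.760 to 0.793 between WT and endo_WT. Between WT and the WT library without UV it was 0.738 to 0.764.

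In piCLIP, SRSF7-GFP from ribosome fractions, Meg3 held more domain events than any other segment in 3 of the 4 immunoprecipitates, and 88 of the 183 events (48.1%) of all 4. Meg3 held 821 and 846 CPM in mono_IP 1 and 2, then 736 and 54.6 in poly_IP 1 and 2. Rian held 248 and 94.0 in mono_IP and 173 and 218 in poly_IP, and Mirg held 76.3 and 94.0 in mono_IP and 86.6 and 54.6 in poly_IP. The level of Meg3 in 3 of the 4 libraries was above that of every WT iCLIP library, and poly_IP 2 was below them all. The domain counts behind these values were 87, 44, 36 and 16 events, in 55 of the 211 bins. The IgG-titled libraries held 3 domain events for monosomes and 9 for polysomes, none of them in Meg3, where 3 events would be 2602 and 269 CPM.

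No difference between polysomal and monosomal fractions passed the threshold in limma-voom. The log2 fold change of poly_IP over mono_IP was 0.41 for the domain (95% interval −1.32 to 2.14, adjusted p = 0.999), −0.74 for Meg3 (−4.01 to 2.54) and 1.03 for the stretch between Meg3 and Rian (−0.70 to 2.77). Rian, Mirg and the stretch between them did not pass the filter on low values. No row of 267 was called (0%), and 7 had an unadjusted p under 0.05. The Meg3 interval is wide because poly_IP 2 held 1 Meg3 event. In poly_IP 2, 7 of the 16 domain events lay in 1 bin between Meg3 and Rian, with 6 at position 110819731, where no UV anti-GFP library had an event.

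Between piCLIP and WT iCLIP the result depended on the scaling and on the rows that passed the filter. The WT libraries were among those that chose the RNAs, so the differences are a description and are given no p-value. Calls of this fit belong to that description and carry no weight as a test of the RNAs. With scaling by a trimmed mean of log ratios, the limma-voom log2 fold change of piCLIP over WT was −3.65 for Meg3 (95% interval −5.63 to −1.67), −4.53 for Rian and −3.94 for the domain. In all, 48% of 615 rows were called in this comparison and 28.1% of the 615 were called lower. The 5 interval rows that passed the filter were all called lower. They are the domain and 4 of its own segments, so they are not independent. Mirg did not pass. With scaling to total events the differences were 0.77 for Meg3, −0.20 for Rian and 0.29 for the domain and none was called, and the median of all rows moved from 0.03 to 4.50. Relative to the median of these 615 rows, the domain was lower in piCLIP by either scaling, while in plain CPM the groups overlapped. Rows could pass the filter through the piCLIP libraries alone. This median is therefore not that of the genome, and a lower level relative to it cannot be read as a lower level in piCLIP. With no filter, the median of 297028 rows was 1.39 with the trimmed mean. Without mono_IP 2 the trimmed-mean domain difference was −1.87 and without poly_IP 2 it was −1.80, with the median of all rows at −1.33 and −1.04, and the call of the domain was lost in both. The Meg3 difference was not called without any 1 of the 4 immunoprecipitates: it was −2.60 without mono_IP 1, −1.82 without mono_IP 2, −3.00 without poly_IP 1 and −0.67 without poly_IP 2. Rian was not called without poly_IP 2 (−2.58), and the stretch between Meg3 and Rian was not called without mono_IP 2, poly_IP 1 or poly_IP 2.

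The distribution of events within the domain does not depend on that scaling. It was tested against the 7 UV anti-SRSF7 libraries, which took no part in the choice of the RNAs. The stretch between Rian and Mirg held 9.16 ± 4.89% of domain events in the 4 piCLIP immunoprecipitates (SD) and 30.2 ± 4.79% in the 7 anti-SRSF7 libraries (exact two-sided permutation test, adjusted p = 0.0303), and every piCLIP library lay below every anti-SRSF7 library. Mirg held 5.81 ± 0.956% and 12.6 ± 4.14% (exact permutation, adjusted p = 0.0303). The stretch between Meg3 and Rian held 29.5 ± 14.2% and 16.7 ± 3.80% (exact permutation, adjusted p = 0.0404), and Rian 14.5% and 18.7% (adjusted p = 0.333). Meg3 held 41.1 ± 24.0% and 21.8 ± 6.49%, which did not pass the threshold (exact permutation, adjusted p = 0.0758). Its shares were 49.4% and 61.4% in mono_IP, 47.2% in poly_IP 1 and 6.25% in poly_IP 2.

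Whether these shares passed the threshold depended on single libraries, several of low counts. The difference of the stretch between Rian and Mirg itself stayed at −22.6 to −19.2 percentage points when 1 library was left out. Without mono_IP 1 or poly_IP 1 neither the stretch between Rian and Mirg nor Mirg passed (exact permutation, adjusted p = 0.0833 for each), although 0.0167, the unadjusted p of the stretch, is the smallest that 3 libraries against 7 can give. Mirg also did not pass without poly_IP 2 (exact permutation, adjusted p = 0.0556). Without poly_IP 2 the Meg3 share was 52.7% and passed (exact permutation, adjusted p = 0.0417). The stretch between Meg3 and Rian did not pass without mono_IP 1, poly_IP 1, poly_IP 2, GFP_OE 3, GFP_OE 4, endo_OE 4 or endo_WT (exact permutation, adjusted p = 0.0635 to 0.111). With each position counted once the stretch between Rian and Mirg passed (exact permutation, adjusted p = 0.0303), and neither Mirg (adjusted p = 0.0833) nor the stretch between Meg3 and Rian (adjusted p = 0.0606) did. Over all 14 UV iCLIP libraries, 7 of which chose the RNAs, the means were 26.5 ± 5.14% for the stretch between Rian and Mirg and 11.4 ± 3.59% for Mirg, given as a description. The p-values are adjusted over the 5 segments, whose shares sum to 100% and are not independent, and the comparison was chosen after the values were seen. The test treats every library as an independent replicate, though the 7 come from GFP_OE, endo_OE, RRM_OE and endo_WT. Same-numbered libraries also deviated together across the genome, with a correlation of 0.602 for GFP_OE with RRM_OE and 0.473 for mono_IP with poly_IP. The p-values do not account for this and may be too small. All piCLIP libraries came from 1 run, carry another result type in their headers and were taken with anti-GFP. The 7 iCLIP libraries of the test were taken with anti-SRSF7 and hold several products. Protocol, run, result type, antibody and product thus cannot be told apart. The stretch between Rian and Mirg held 20.4% to 23.9% in the 7 UV anti-GFP iCLIP libraries. It held 21.4% to 37.1% in the anti-SRSF7 libraries and 3.45% to 13.9% in piCLIP. The part of the antibody was not tested.

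**Figure D4:**
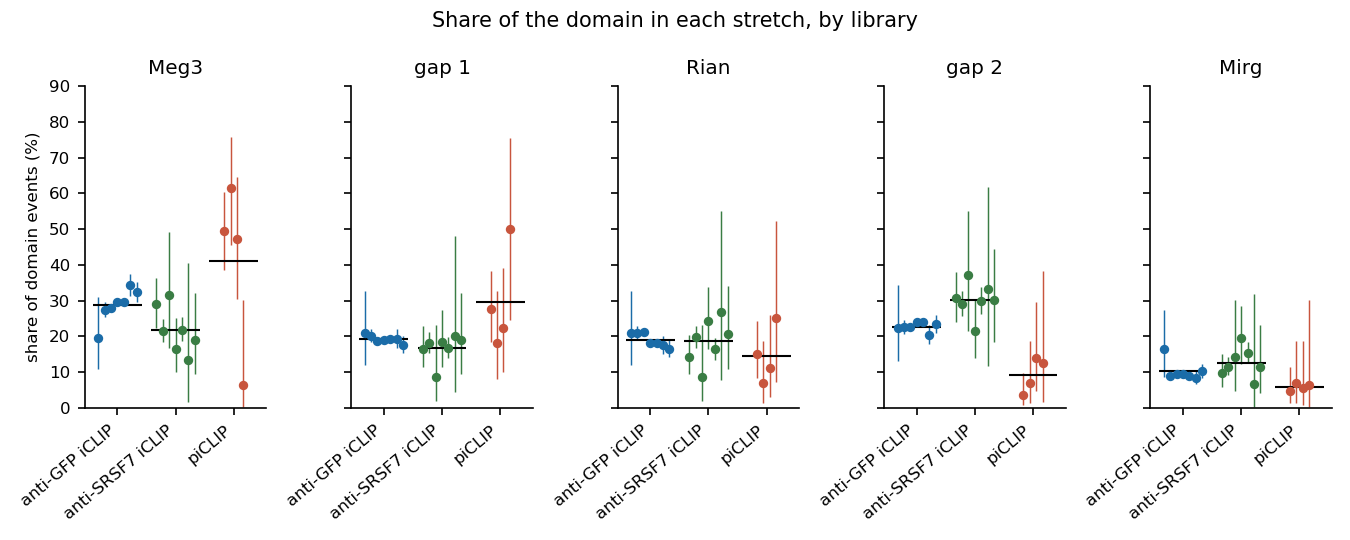
Share of domain events (percent) in Meg3, the stretch between Meg3 and Rian (gap 1), Rian, the stretch between Rian and Mirg (gap 2) and Mirg, 1 point per library with its 95% exact binomial interval, for UV anti-GFP iCLIP, UV anti-SRSF7 iCLIP and piCLIP, with black lines for the means. In Meg3 the piCLIP points lie at 49.4%, 61.4%, 47.2% and 6.25%, and those of the 7 UV anti-GFP libraries at 19.4% to 34.3%.

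Within Meg3, piCLIP and iCLIP had different leading bins. The bin 6.5 kb from the start (chr12:110785001-110786000) ranked first in mono_IP 1 and 2, with 13 of 87 and 9 of 44 domain events. Over the 4 immunoprecipitates it held 24 of 183 events (13.1%, 95% exact binomial interval 8.59 to 18.9), against 2.81% in WT 4 and 3.23% in mutZn 3. The bin 8.5 kb from the start, first in 6 of the UV anti-GFP libraries and tied for first in WT 2, at 4.48% to 7.22% of domain events, held 3 of the 183 (1.64%, interval 0.339 to 4.72). The first 10 kb held 49.4% and 56.8% of domain events in mono_IP, 36.1% in poly_IP 1 and 6.25% in poly_IP 2. These bins were set side by side after their values were seen, the intervals cover counting error only, and the difference was not tested.

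Some other windows of the genome had a pattern over the 7 UV anti-GFP libraries like that of the 3 RNAs. Among 423 candidate windows with at least 20 events in every library, the 5 with the highest Pearson correlation of log2(CPM + 1) with the sum of the 3 RNAs had r of 0.886 to 0.943. They were the minus-strand windows chr7:133635001-133640000 (r = 0.943, mutZn to WT ratio 1.73), chr6:122270001-122275000 (r = 0.918, ratio 2.89), chr15:79360001-79365000 (r = 0.916, ratio 1.62) and chr2:174105001-174110000 (r = 0.912, ratio 1.12), and the plus-strand window chr2:153490001-153495000 (r = 0.886, ratio 1.67). WT 2 was the lowest library in each of them, as in the 3 RNAs. The filter of 20 events also held for WT 2, where each whole segment of the domain had only 11 to 15 events. Windows as low in WT 2 as the domain could therefore not be candidates. For this reason the size of these ratios cannot be set against that of the 3 RNAs.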

How the data were processed

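The series holds 25 libraries of SRSF7 crosslink sites in P19 cells by iCLIP and piCLIP, grouped by their titles. The authors deposited 1 signed score per crosslinked nucleotide, which per the file headers is the number of cDNAs on mm9 with annotation Ensembl 59, the sign being the strand. Per the file headers, peaks passed 100 permutations within 15 nt at a false discovery rate of 0.05. Per the submitters' processing notes the tools include CASAVA 1.4. Aligner and duplicate removal: not given in the sources used here.

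Absolute scores were summed per strand over 5 kb windows, over 1 kb bins of the domain and over each interval. Windows were tested with limma-voom (limma 3.58.1, R 4.3.3) on these sums of absolute scores. The scaling was a trimmed mean of log ratios (30% of ratios and 5% of levels trimmed), with Benjamini-Hochberg adjustment over all rows and a threshold of 0.05. Rows entered a fit with at least 15 events overall and with the CPM of 10 events at the median library reached by at least as many libraries as the smallest group with replicates. This fit was tested on simulated data. Intervals are 95%, and counting intervals cover counting error only.

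The members, lists and tests were chosen with earlier results of these data known. Bins, peaks and similar windows were named by the rule given beside them. Genes of the domain and microRNAs come from RefSeq on GRCm38.p6, by order and sequence only.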

Additional observations from a re-analysis of the deposited data

Results flagged for a closer look

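Levels with and without UV differed in direction between proteins, by the rule that every UV library of one protein lay above and every UV library of another below its library without UV. The difference was not tested. For the domain, the mean CPM with UV was 1.29 times that without UV in mutZn, 0.458 times in WT (0.629 without WT 2) and 0.85 times in D27aa. For Meg3 the ratios were 1.4 in mutZn and 1.53 in D27aa against 0.403 in WT (0.567 without WT 2). For the stretch between Meg3 and Rian they were 1.47 in mutZn, 0.366 in WT (0.499 without WT 2) and 0.651 in D27aa.

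For Rian the ratio was 1.0007 in mutZn, with both UV libraries less than 2 CPM above the level without UV, against 0.665 in WT (0.912 without WT 2) and 0.918 in D27aa. For the stretch between Rian and Mirg it was 1.20 in mutZn, 0.428 in WT (0.588 without WT 2) and 0.56 in D27aa. For Mirg it was 1.69 in mutZn and 0.737 in WT (0.947 without WT 2), while 1 D27aa library lay above and 1 below its library without UV. The libraries without UV held 9 to 70 events per RNA. The D27aa library without UV shared 21 domain positions with WT 4, against 14 at an offset of 1 or 2 nt, which was not tested. With WT 4 the WT library without UV shared 33 against 34, and the mutZn library without UV 26 against 30.75.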

How the results depend on the processing

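Of 742 alternative values, 589 kept their direction and their side of the threshold or moved by less than the stated limits, 36 lost significance, 4 gained it, 59 changed sign and 54 moved. The order WT, D27aa, mutZn in the domain and in each RNA was kept in all alternatives run on the ratios but 1: with each position counted once the mutZn to D27aa ratio was 0.921 for Meg3 and 1.33 for the domain. With run 5 alone the D27aa to WT ratio of the domain was 8.42. With run 5 alone, WT had 19.4% of domain events in Meg3 and 16.4% in Mirg. With each position counted once, mutZn had 22.0% in Meg3 and 19.98% in Rian, and D27aa had 17.53% in Rian, where run 5 alone gave 17.52% and run 6 alone, or leaving out either library, 16.5% to 17.52%.

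All changes of sign in the fits were in differences past no threshold in either setting, apart from piCLIP against WT. There, scaling by total events gave 0.29 for the domain, 0.77 for Meg3 and 0.82 for the stretch between Meg3 and Rian on the log2 scale, and no filter gave −1.79 for the domain, where it was not called. Calls numbered 295, against 488 with scaling by total events, 140 with each position counted once and 155644 of 297028 with no filter. Leaving out 1 library gave −5.11 to −1.80 for the domain and 131 to 1134 calls. In the shares of the domain in piCLIP against anti-SRSF7 iCLIP, counting each position once gave a difference of 10.7 percentage points for the stretch between Meg3 and Rian and −4.80 for Mirg, which then did not pass. With only the anti-SRSF7 libraries of at least 100 domain events, 4 against the same 4 immunoprecipitates, the second stretch (−18.6) and Mirg (−8.13) did not pass. The first stretch, at 12.1, did not either. The immunoprecipitates, at 16 to 87 domain events, were all kept, and 4 against 4 libraries limit how small p can be. Leaving out 1 library gave 12.5 to 30.9 points for Meg3, 5.92 to 16.5 for the first stretch, −22.6 to −19.2 for the second and −7.75 to −5.63 for Mirg. Against all UV iCLIP, given as a description, counting each position once gave a difference of 19.3 points for Meg3 and −3.81 for Mirg. Leaving out 1 immunoprecipitate gave 9.08 to 27.4 points for Meg3, 4.64 to 15.2 for the stretch between Meg3 and Rian and −7.89 to −1.83 for Rian.

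For poly_IP against mono_IP, the domain difference was −0.42 with scaling by total events and −1.02 with no filter, where the stretch between Meg3 and Rian was at −0.43 and 59 calls were made. Leaving out 1 library gave −0.17 to 0.83 for the domain, −2.77 to 0.57 for Meg3 and 0 to 69 calls.

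For RRM_OE against GFP_OE, Rian was at −1.55 with no filter, −0.40 with each position counted once (1 call), −0.14 with limma-trend, −0.11 with run as a block (1 call) and −0.30 to 0.32 without 1 library (0 to 4 calls). For endo_OE against GFP_OE, Rian was at 0.067 with scaling by total events (1 call) and −1.55 to 0.16 without 1 library (0 to 47 calls). Mirg was at −0.66 with no filter, −0.021 with each position counted once, −0.065 with limma-trend, −0.016 with run as a block (21 calls) and −0.27 to 0.47 without 1 library. For RRM_OE against endo_OE, scaling by total events gave −0.14 for the domain and −0.18 for Meg3, and each position counted once gave −0.064 and −0.24. No filter gave −0.74 for the domain, −1.14 for Meg3, −0.10 and −0.54 for the stretches before and after Rian and −0.050 for Rian, with 1 call. Meg3 was at −0.39 with limma-trend, and run as a block gave 23 calls. Leaving out 1 library gave −0.45 to 0.39 for the domain, −0.96 to 0.19 for Meg3, −0.16 to 1.45 and −0.16 to 0.50 for the stretches, −0.16 to 1.63 for Rian and 0 calls.

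For GFP_OE against WT, no filter gave −0.42 for the domain, −0.48 for Meg3, −0.46 for the stretch between Meg3 and Rian, −0.58 for Rian and −0.18 for Mirg. Calls numbered 505 with no filter and 5 with limma-trend, against 1088. Leaving out 1 library gave −0.089 to 1.62 for the domain, −0.27 to 1.44 for Meg3, −0.22 to 1.03 for the stretch, −0.33 to 0.95 for Rian and 0 to 899 calls.

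Shared replicate numbers were not treated as pairs, since each comparison had only 2. Same-numbered libraries deviated together with a correlation of 0.473 for mono_IP with poly_IP, 0.602 for GFP_OE with RRM_OE (same number, same run) and 0.0385 for WT with GFP_OE. With the replicate number as a block, Meg3 was at 0.15 for poly_IP against mono_IP (12 calls). Rian was at −0.092 for RRM_OE against GFP_OE (12 calls), Mirg at −0.57 for endo_OE against GFP_OE (44 calls), and Meg3 at −0.39 and Mirg at 0.089 for RRM_OE against endo_OE (51 calls). GFP_OE against WT gave −0.070 for the domain, −0.19 for Meg3, −0.23 for the stretch between Meg3 and Rian and −0.39 for Rian, with 454 calls.

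Run as a block and the piCLIP shares with their alternatives were chosen after seeing the data. The cause of these changes was not tested, except that with no filter many more windows enter the adjustment. Depth limits the piCLIP and anti-SRSF7 values, since a library there held 16 to 87 and at least 15 domain events, and Rian in endo_OE 4 rests on 3.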
